A study of Mus musculus with 4 samples.

Results

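The cytosolic ribosomal protein genes were followed in the lungs of male CDF1 mice, as rows of an mRNA-seq table whose symbol is Rpl, Rps or Rplp with a number, or Rpsa. Of 84 such symbols, 83 had a mean normalized read count of at least 4 over the libraries, out of 15164 rows that passed the same limit and 23282 rows in all. The 83 genes comprised 43 genes of the large subunit, 31 of the small subunit, 3 of the P stalk and 6 paralogs of such genes (Rpl3l, Rpl7l1, Rpl22l1, Rpl39l, Rps4l and Rps27l). Only Rpl10l fell below the limit, at a mean of 0.24 with 1 read in 1 library. The members nearest above it were Rpl3l at 17.5 and Rps4l at 187.

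The study crossed treadmill exercise (E) with tumor (T), giving 4 lung libraries, 1 per group. Without tumor there were a normal control, E(-)T(-), and a normal exercise library, E(+)T(-). With tumor there were a cancer control, E(-)T(+), and a cancer exercise library, E(+)T(+). Exercise was high-intensity running on alternate days, and tumor was induced by tail vein injection of CT26, a mouse line of colorectal carcinoma. The labels give postnatal day 28 and 10 mice per group. The study gives that age for the mice at purchase, and tissues were taken later, at the end of the experiment. Whether lung RNA came from 1 mouse or a pool was not stated. The muscle analyzed alongside came from a representative mouse per group, and the lungs were described as analyzed similarly. No difference below has a replicate check, and the intervals cover counting error only.

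A ribosome joins a small subunit, which reads the mRNA, to a large subunit, which forms the peptide bond, and nearly every ribosomal protein is needed in a single copy per particle. Their mRNAs are among the most abundant of a growing cell. Most start with a terminal oligopyrimidine (TOP) tract, a cytidine followed by further pyrimidines, through which the kinase mTOR and the protein LARP1 regulate their translation. In the lung, as in other tissues, a few members have paralogs whose use varies with cell type.

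RefSeq start sites (GRCm38.p6) were at hand for 62 of the 83 members. A tract of C followed by at least 4 C or T, read from the start itself on the gene's strand, was found for 13 of them (21%), against 3.01% of 27025 symbols with a start. The letters CTTCCG, on either strand of the 300-base window around the start, were found for 67.7% of the members and 18.8% of all symbols. These symbols were not limited to rows that passed the level limit, as the members were. The windows below run 15 bases either side of the start, with the tract in capitals. They show Rpl28, Rps6, Rps15a and Rplp2, which were far higher in the cancer control lung, Rps27 and Rpl35a, which were not, and Rpl39l, which has no tract at this start. A match describes letters only, and the tract was read only at the annotated start, so that a start annotated some bases away counts as having none.
Rpl28: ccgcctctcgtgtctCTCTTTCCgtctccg
Rps6: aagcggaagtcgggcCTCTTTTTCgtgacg
Rps15a: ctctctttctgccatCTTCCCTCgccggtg
Rplp2: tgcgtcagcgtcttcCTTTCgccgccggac
Rps27: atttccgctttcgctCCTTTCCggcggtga
Rpl35a: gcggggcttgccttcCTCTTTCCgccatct
Rpl39l: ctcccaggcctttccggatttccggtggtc

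The windows lie at chr7:4792950-4792979 (Rpl28, plus strand), chr4:86857353-86857382 (Rps6, minus), chr7:118116133-118116162 (Rps15a, minus), chr7:141447636-141447665 (Rplp2, plus), chr3:90213634-90213663 (Rps27, minus), chr16:33056467-33056496 (Rpl35a, plus) and chr16:10170213-10170242 (Rpl39l, plus). The median tumor difference without exercise was 1.12 (log2) over members with CTTCCG and 1.0 over those with a start but without the letters. For the tract the medians were 1.28 with it and 1.02 with a start but none.

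The libraries held 9354517 to 13368013 reads, recovered from the deposited values. The surfactant gene Sftpc and other alveolar markers were present in each, but were lower in the cancer control: the summed level of 8 alveolar type 2 markers was 18097 CPM (reads scaled to a common total of 1000000) in the normal control, 19871 in the normal exercise, 2721 in the cancer control and 10361 in the cancer exercise. The cell division markers went the other way, at 101, 136, 1643 and 348 CPM. Fibroblast markers were at 868, 809, 3574 and 928 CPM, B cell markers at 97.5, 84.3, 3.21 and 19.9 CPM, T cell markers at 112, 85.8, 12.6 and 51.4 CPM, and endothelial markers at 2111, 2118, 316 and 1451 CPM. Neutrophil markers were at 372, 1065, 1172 and 13468 CPM, a sum highest in the cancer exercise. S100a8 and S100a9 held 77269 and 75784 of its 180040 reads there. Of 10 neutrophil markers, 9 were higher in the cancer exercise than in the cancer control, where 50.3% of all rows were, and Ltf was lower, at -1.40. Hemoglobin genes took 14.3%, 14.2%, 1.43% and 31.4% of the reads, which count in the CPM totals and lower the CPM of other genes in the cancer exercise. As summed normalized counts, the endothelial markers were at 23348, 24860, 3239 and 22685. The fibroblast markers were at 9603, 9503, 36634 and 14500.5 on that scale. The part of these shifts in the results below was not tested, and in bulk tissue fewer cells of a type and less RNA per cell cannot be told apart.

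The members together were most abundant in the cancer control lung. They took 3.51% of the reads in the normal control (Wilson 95% interval 3.50 to 3.52), 3.85% in the normal exercise (3.84 to 3.86), 7.60% in the cancer control (7.58 to 7.62) and 3.20% in the cancer exercise (3.19 to 3.21). With the hemoglobin genes and the ribosomal RNA row Rn45s left out of the total, the shares were 4.49%, 4.82%, 8.11% and 5.08%. The cancer exercise library was thus the lowest library by the first count and the second highest by the other. The median member stood at 11.60, 11.81, 12.46 and 11.80 on the log2(normalized read count + 1) scale. In the cancer control, 74 of the 83 members had their highest value, where 35.5% of all rows and 39.3% of those with a mean of at least 1000 had theirs. In the normal control 63 had their lowest, where 22.1% and 34.0% of these rows did.

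**Figure D1:**
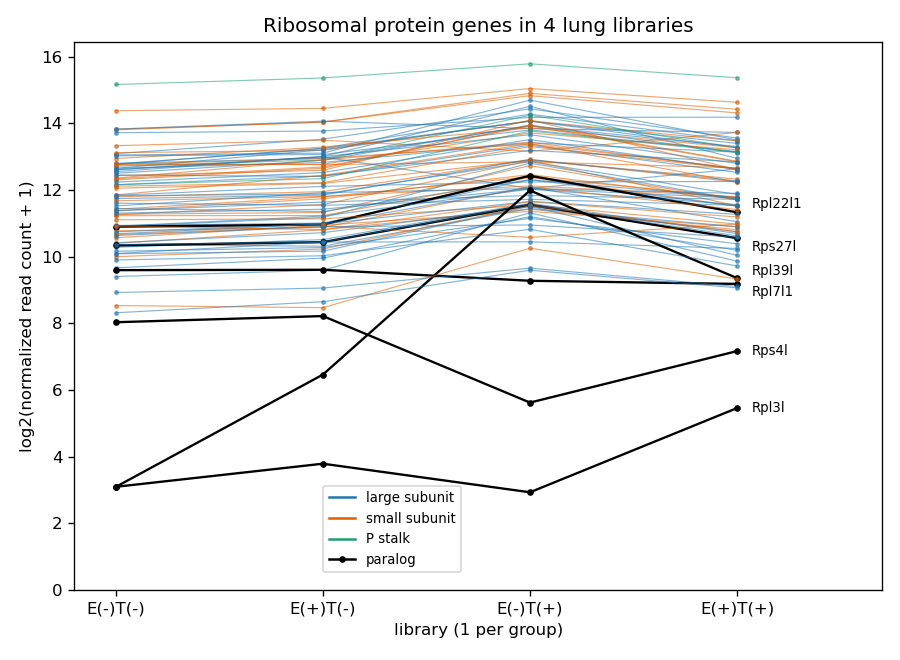
Each line is 1 of the 83 members, with log2(normalized read count + 1) on the y axis and the 4 lung libraries on the x axis. Colors mark the subunit, and the 6 paralogs are black. Most lines peak in the cancer control, where 74 members are highest, while Rps4l dips there and Rpl39l climbs from 3.10 in the normal control to 11.98 in the cancer control.

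The order of the members by count was largely kept, with exceptions. Across the 83 members, Spearman's rho of the log2 values was between 0.92 (normal control and cancer control) and 0.99 (normal control and normal exercise), as a description over genes that share libraries. Pearson's r was 0.83 between the normal control and the cancer control, where Rpl22 went from rank 3 to 20, Rps29 from 7 to 33, Rpl26 from 23 to 52 and Rpl39l from 83 to 56. The 8 with the highest mean counts were Rplp1, Rps14, Rps20, Rps9, Rpl41, Rpl22, Rpl32 and Rpl23, and the top 8 of each library held 31.0% to 34.4% of the members' reads. A library of this kind reads each transcript once near its 3' end, so counts were not divided by length. Rplp1, an acidic protein of the stalk that recruits elongation factors, led in every library, at 15.16, 15.36, 15.78 and 15.37 (log2).

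The first comparison asked what exercise did in lungs without tumor. The members were slightly higher in the normal exercise than in the normal control: the median log2 difference was 0.19, against 0.00 over all rows, and 76 of 83 were higher, where 50.0% of all rows were. Abundant genes in general were also somewhat higher: among the 1934 rows with a mean count of at least 1000, which hold 77 of the members, the median was 0.10 and 67.0% were higher. The differences outside the paralogs were small. Rps27a, made as a fusion of ubiquitin with a small subunit protein, was 0.59 higher (exact 95% interval 0.53 to 0.64), and Rps23, at the decoding center, 0.55 higher. Rps28 was lowest, at -0.11, beside Rpl36 at -0.09. Counting error alone left 20 members with an interval that held 0, 61 above it and 2 below it, where 52.1% and 21.6% of the rows with a mean of at least 1000 lay above and below. Only Rpl39l passed 2-fold, upward, and no member passed it downward (5.28% and 4.7% of all rows did). When scaled to library totals the same median was 0.10 with 61 members higher, and without hemoglobin genes and Rn45s in the totals it was 0.076 with 56 higher. The median of all rows shifted to -0.08 and -0.11.

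The second comparison asked what tumor did without exercise, and gave the largest differences. The median member was 1.08 higher in the cancer control than in the normal control, against -0.03 over all rows, and 77 of 83 were higher, where 48.9% of all rows were. At 2-fold or more, 47 members were higher and 1, Rps4l, was lower, where 20.6% of all rows were higher and 25.7% lower. The exact interval lay above 0 for 75 members and below it for 4, where 51.3% and 41.7% of the rows with a mean of at least 1000 lay above and below. The large and the small subunit moved alike, with medians of 1.09 and 1.02.

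In the large subunit, Rpl4, which lines the exit tunnel, stood at 12.55 in the normal control, 13.01 in the normal exercise, 14.51 in the cancer control and 12.95 in the cancer exercise (log2). Only the cancer control library stood out, at 1.96 above the normal control (exact interval 1.92 to 2.0). Rpl12, a protein at the base of the stalk, stood at 9.40, 9.59, 11.31 and 9.86 and was 1.91 higher (1.80 to 2.03). Rpl28 stood at 10.90, 11.17, 12.81 and 11.72, a difference of 1.90 (1.83 to 1.97), and kept part of it in the cancer exercise. Rpl32 was 1.65 higher in the same comparison, and Rpl7a, Rpl13 and Rpl27 were 1.53, 1.51 and 1.47 higher.

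In the small subunit, Rps2, at the mRNA entry channel, stood at 8.53, 8.47, 10.25 and 9.33 in the same order of libraries. It was 1.72 higher with tumor (1.56 to 1.89), and the cancer exercise lung lay between the cancer control and both tumor-free lungs. Rps3, a neighbor at the same channel, stood at 12.43, 12.59, 14.10 and 12.61, with the cancer control far above the other libraries. Rps6, the substrate of S6 kinase downstream of mTOR, stood at 11.26, 11.56, 12.88 and 11.53 and was 1.63 higher (1.56 to 1.69). Rps15a was 1.58 higher, and Rpsa, which also serves as a laminin receptor, 1.46 higher. In the P stalk, Rplp0, the scaffold, was 1.61 higher and Rplp2 1.53 higher, but Rplp1 only 0.62. Rpl5 and Rpl11, which carry 5S rRNA into the ribosome and can bind Mdm2, were 1.05 and 1.42 higher.

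A smaller set stayed level or was lower with tumor. Rpl26, known to bind p53 mRNA, stood at 12.60, 12.99, 12.04 and 12.63 in the same order of libraries. It was 0.56 lower in the cancer control lung than in the normal control lung (interval of the log2 difference -0.62 to -0.50), its lowest library. Rps29, a small zinc-binding protein of the small subunit, had a difference of -0.17 (-0.21 to -0.13). The difference for Rps27 was -0.08 (-0.19 to 0.02) and for Rpl22 0.02 (-0.02 to 0.05), so neither could be told from 0 at this depth. Rps15, Rpl35a and Rpl7 differed by 0.06, 0.09 and 0.12.

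**Figure D2:**
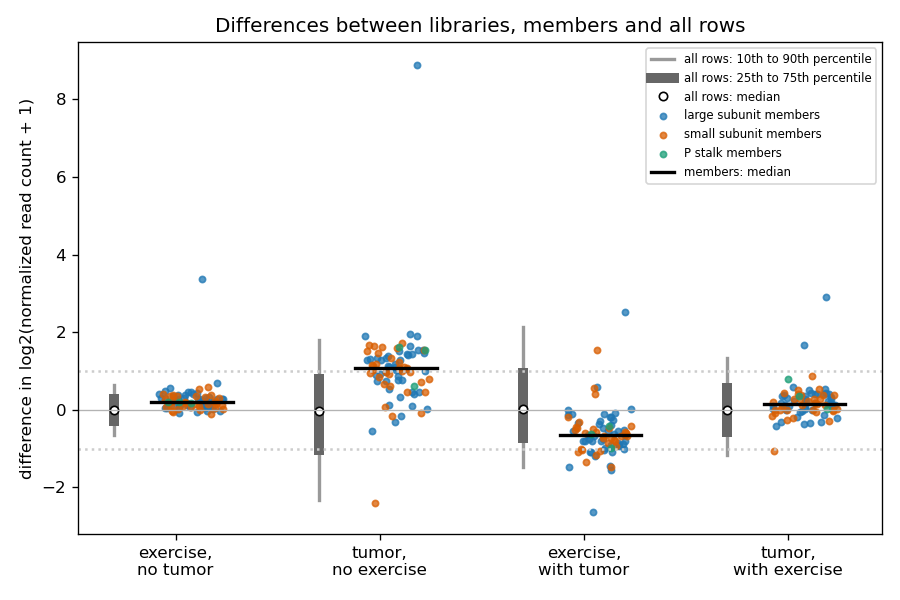
Differences in log2(normalized read count + 1) for 4 pairs of libraries, with 1 point per member colored by subunit and a black bar at their median. Gray bars at the left of each group give the 10th to 90th and 25th to 75th percentiles of all 15164 rows, with a white point at the median, and dotted lines mark 2-fold. The members' medians are 0.19, 1.08, -0.65 and 0.16, while those of all rows are within 0.04 of 0.

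The third comparison asked what exercise did in lungs with tumor. The members were lower in the cancer exercise than in the cancer control, with a median log2 difference of -0.65 against 0.01 over all rows. Of the 83, 7 were higher, where 50.3% of all rows were. The exact interval lay below 0 for 75 members, above it for 5 and held it for 3. Of the rows with a mean of at least 1000, 44.5% lay below and 46.0% above. At 2-fold or more, 17 members were lower and 2 higher, where 17.7% of all rows were lower and 24.3% higher, and where 11.7% and 20.3% of the rows with a mean of at least 1000 were. The lower members made 20.5% of the 83, and 18.2% without the paralogs, close to the share of all rows. Those higher made 2.41%, both of them paralogs. The lowest outside the paralogs were Rpl4 at -1.56, Rps3 at -1.49, Rpl11 at -1.47 and Rpl12 at -1.45. Rpl26 and Rps29 were higher, by 0.59 (0.53 to 0.65) and 0.56 (0.52 to 0.61), and Rps27 by 0.40. Rpl41 and Rpl10 had values of 0.01 and 0.02. Scaling to library totals, in which the hemoglobin reads of the cancer exercise count, shifted the median of all rows to -0.59 and that of the members to -1.26, with 63 members 2-fold or more lower, where 35.4% of all rows were on that scale. Their distance from all rows was -0.67, against -0.66 on the deposited scale.

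The fourth comparison asked what tumor did in exercised mice. The members were close to level: the median log2 difference between the cancer exercise and the normal exercise lung was 0.16, against 0.00 over all rows, and 58 of 83 were higher, where 49.8% of all rows were. The exact interval lay above 0 for 50 members, below it for 15 and held it for 18. Of the rows with a mean of at least 1000, 46.3% lay above and 40.6% below. On library totals the median was -0.26 with 15 members higher, and the direction changed, while all rows moved to -0.41. Rps2 at 0.86, Rplp0 at 0.79 and Rpl3 at 0.59 led outside the paralogs. Rpl26 was lowest there at -0.36, beside Rpl22 at -0.34. At 2-fold or more, Rpl39l and Rpl3l were higher and Rps4l lower, where 14.9% and 13.0% of all rows were. Over the 83 members, the tumor difference with exercise had a Spearman's rho of 0.40 with that without exercise, and over all rows 0.43. The pairs share no library, and the values describe genes, which are not replicates.

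An additive fit of exercise and tumor over the 4 libraries (limma) leaves 1 residual degree of freedom. For tumor it called 1 member higher and 0 lower at a Benjamini-Hochberg adjusted p under 0.05, where it called 1.89% of all rows higher and 1.38% lower. That member was Rpl39l, at 5.89 (SE 0.93, limma adjusted p = 0.00551). Before adjustment, 5 members passed 0.05 upward (Rpl39l, Rps2, Rpl28, Rpl12 and Rps13) and 1 downward (Rps4l), where 8.35% and 9.47% of all rows did. The fit averages the exercise differences with and without tumor, and its residual is their disagreement, so for members that differ in opposite directions it could hardly give a call for exercise. For exercise it called 0 members, where 0.0% of all rows were called, and 0 passed before adjustment, where 4.97% of all rows did. The 5.89 of Rpl39l is the mean of 8.89 without exercise and 2.89 with it. Its SE was drawn by limma toward the spread of other rows, so SE and p do not measure the spread of Rpl39l itself. The Rpl39l call also rests on the setting. Its limma adjusted p was 0.108 without hemoglobin genes and Rn45s in the totals, 0.241 without the trend, 0.18 at a level limit of 100 and 0.733 with no limit. It was 0.0173 with median-of-ratios factors and 2.34e-13 on library totals.

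The paralogs differed among themselves. Rpl39l (chr16:10170226-10174911, plus strand, protein coding), best known from male germ cells, had 9 reads in the normal control, 95 in the normal exercise, 3699 in the cancer control and 560 in the cancer exercise. In log2 values these were 3.10, 6.46, 11.98 and 9.36, so that the normal control had almost none and both tumor libraries had the most. It was 8.89 higher with tumor without exercise (exact interval 8.12 to 10.2) and 2.89 higher with exercise (2.59 to 3.24). Its normal exercise value was 3.37 above the normal control (2.53 to 4.69) in a lung without tumor, at 2.15% of the cancer control level. Krt20 and Crabp1, named after their values were seen, had no read in the normal control. Krt20, an intestinal keratin, had 0, 46, 2696 and 476 reads, and Crabp1, a retinoic acid binding protein, 0, 141, 10478 and 382. Their normal exercise levels were 1.43% and 1.13% of those in the cancer control, and the part of RNA from another library in them was not tested.

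Set against its partner, Rpl39l made 0.21% of the reads of Rpl39l and Rpl39 in the normal control (exact 95% interval 0.10 to 0.40), 2.27% in the normal exercise, 35.4% in the cancer control (34.5 to 36.4) and 14.9% in the cancer exercise (13.8 to 16.1). Rpl22l1, which can replace Rpl22, made 11.6%, 10.4%, 27.3% and 16.0% of its pair. With tumor and no exercise, Rpl22l1 was 1.53 higher while Rpl22 differed by 0.02. The median member was 1.08 higher in that comparison, so that Rpl22 was the gene of the pair farther from it. Rps27l, a known p53 target, made 44.4%, 41.8%, 66.3% and 42.7% of its pair with Rps27. It was 1.22 higher with tumor without exercise, near the median member, while Rps27 differed by -0.08. The copy Rps27rt held more reads than Rps27 (4210, 4241, 3742 and 3332), and with it counted the shares of Rps27l were 19.9%, 19.2%, 34.8% and 20.3%. The shares of Rpl22l1 and Rps27l were highest in the cancer control, with or without that copy.

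The paralog 2-fold or more lower in both tumor comparisons was Rps4l. Rps4l (chr6:148354656-148355598, plus strand), annotated as a transcribed processed pseudogene of the Rps4x family, had 307, 323, 44 and 122 reads. It was 2.41 lower with tumor without exercise (-2.93 to -1.98) and 1.05 lower with exercise, and made 5.79%, 5.95%, 0.63% and 2.70% of its pair with Rps4x. Rpl7l1, a factor of early large subunit assembly, made 19.9% and 20.7% of its pair without tumor and 15.5% and 16.3% with it. Rpl3l, found mainly in striated muscle, had only 9, 14, 6 and 37 reads. Its tumor difference was -0.16 without exercise (-1.99 to 1.44), which could not be told from 0, and 1.67 with exercise (0.83 to 2.75). It was 2.53 higher in the cancer exercise than in the cancer control (1.46 to 4.25), a comparison in which all 8 muscle markers that passed the level limit were also 2-fold or more higher, where 24.3% of all rows were. The summed muscle markers were at 131, 126, 37.6 and 76.8 CPM in the order of the libraries. As summed normalized counts they were at 1447, 1481, 386 and 1200. Of the 8 markers, 3 (Acta1, Tnnt3 and Myh6) had their highest value in the cancer exercise, as Rpl3l did, against 5 in a tumor-free library. Their part in the Rpl3l difference was not tested.

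**Figure D3:**
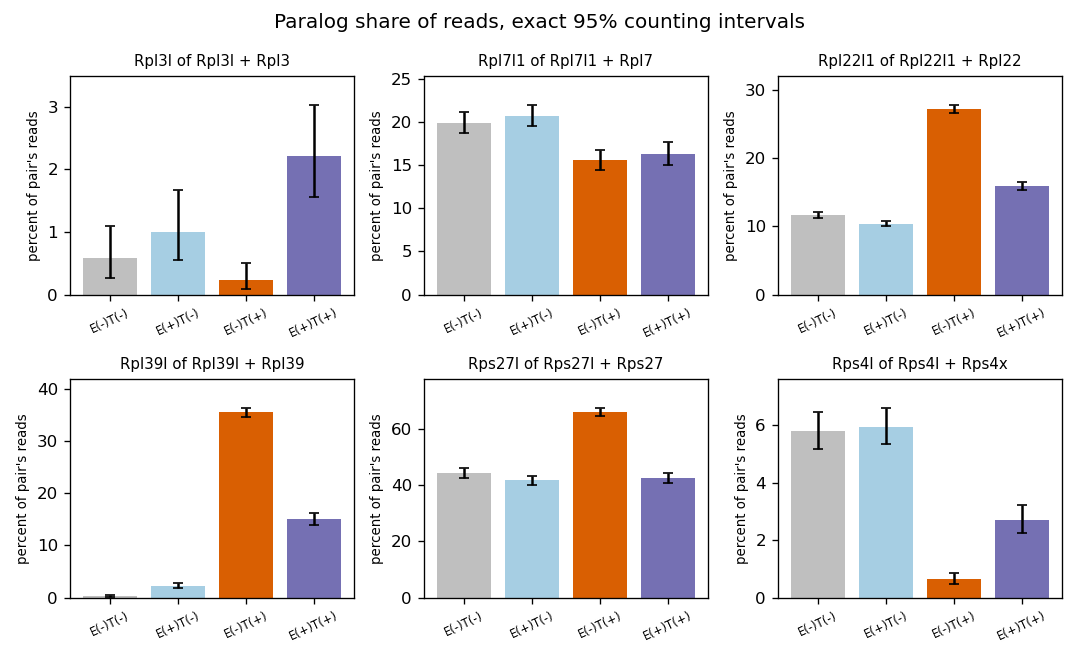
Each panel gives the paralog's percent of the reads of a pair in the 4 libraries, as bars from 0 with exact 95% counting intervals. Scales differ between panels. Rpl39l, Rpl22l1 and Rps27l have their highest share in the cancer control, at 35.4%, 27.3% and 66.3%, whereas Rps4l, Rpl3l and Rpl7l1 have their lowest there.

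Ribosomal protein genes have many processed copies, and reads may be split among them. Rplp2-ps1 held 17790, 18451, 41708 and 17493 reads, more than Rplp2 itself (7900, 8325, 17670 and 8431), so levels of such members are uncertain. Over the 9 copies in the files, named -ps or rt, the medians of the comparisons were 0.18, 0.63, -0.41 and 0.00. Of the cytosolic ribosomal proteins outside the symbol rule, Gnb2l1 (RACK1, a scaffold on the small subunit) was 1.42 higher with tumor without exercise, Fau 0.69 and Rpl36al 0.28 higher. For 16 members known as Diamond-Blackfan anemia genes, whose loss impairs red cell formation, the medians were 0.21, 0.88, -0.64 and -0.01.

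Other genes of the translation machinery also had positive medians for tumor without exercise. Of 66 ribosome biogenesis factors, 44 were 2-fold or more higher in the cancer control than in the normal control and 0 lower, where 20.6% and 25.7% of all rows were, with a median of 1.20. Among them were the nucleolar proteins Nop58 (2.60), Ncl (2.50) and Npm1 (2.25). With exercise in tumor lungs, the list's median was -0.83. The 36 initiation factors had a median of 0.86, from Pabpc1 at 2.05 to Eif4a2 at -2.32. The 9 elongation factors had 0.96, with Eef1b2 at 1.85, Eef1a1 at 1.01 and Eef2 at 0.78, and with Eif5a2, of 41 and 6 reads, lowest at -2.24. The 20 cytosolic tRNA synthetases had 0.93, the 15 TOP mRNAs outside the ribosome 1.05, the 14 RNA polymerase I genes 0.59 and 77 mitochondrial ribosomal protein genes 0.65. For tumor, limma called 1 gene of the initiation factors, downward, and none of the other lists just named, where it called 1.89% of all rows higher and 1.38% lower. Of the 66 biogenesis factors, 17 passed 0.05 upward before adjustment, where 8.35% of all rows did.

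**Figure D4:**
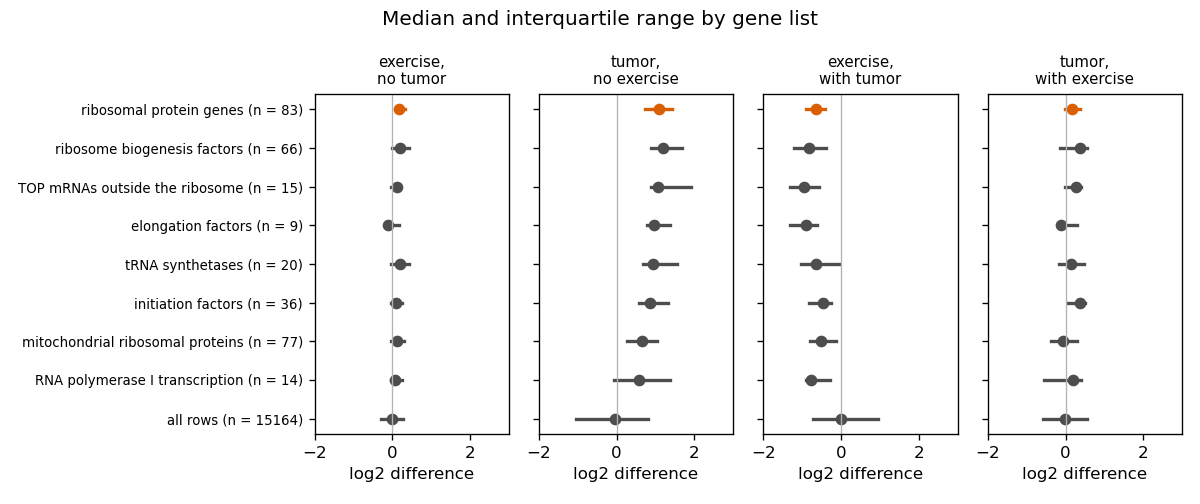
Points are medians and bars the interquartile ranges of the log2 difference for each gene list, with n the genes that passed the level limit, in the 4 comparisons. Ribosomal protein genes are in orange, and all 15164 rows are at the bottom. The list medians lie right of 0 for tumor without exercise (1.08 for the members, 1.20 for biogenesis factors) and left of 0 for exercise with tumor. The median of all rows lies near 0 throughout. For tumor without exercise, the bar of the RNA polymerase I genes crosses 0 (-0.06 to 1.36).

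Some known regulators of the group were higher in the same library. Myc, which drives transcription of ribosomal protein genes, had 23, 4, 209 and 10 reads, and its log2 value was 3.49 higher in the cancer control than in the normal control (2.93 to 4.24). Mtor was 2.02 higher and Larp1 1.74 higher in the same comparison, and the translation repressor Eif4ebp1 3.03 higher. Of 16 mTOR pathway genes, 13 were higher, where 48.9% of all rows were. They included Rps6kb1 at 0.87 and Rheb at 0.83, with Rptor nearly level at 0.07. They also included Ddit4, an inhibitor of mTOR, at 2.81, so the count gives no direction of pathway activity. The 3 lower were Tsc2 at -0.58, Tsc1 at -0.68 and Mlst8 at -0.84. Across 16 mTOR pathway genes the median was 0.91 and 7 were 2-fold or more higher, where 20.6% of all rows were, with limma calling 2 of them higher for tumor, where 1.89% of all rows were, and across 10 genes of the MYC family it was -0.34, with none called.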

How the data were processed

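Lung RNA was sequenced in 4 libraries, 1 per group. The authors prepared QuantSeq 3' mRNA-seq libraries, aligned single-end reads with Bowtie2 to mm10 (GRCm38), counted them with bedtools and adjusted the counts by the quantile method of edgeR. Versions, annotation and strand use are not given in the sources used here, so overlapping, antisense and near-identical genes may share reads. The values deposited are log2(normalized read count + 1) at 3 decimals. Whole reads were recovered by inverting the quantile adjustment (fitted dispersion 0.372). The recovered reads regenerated 100% of the values within 0.001, and rounding limits those of high rows. The libraries held 13017440 reads (normal control), 12780427 (normal exercise), 9354517 (cancer control) and 13368013 (cancer exercise), and a count of 0 allows up to 0.22 to 0.32 CPM (3 reads).

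Differences between libraries are differences of deposited log2 values, with a level limit of 4 on the mean normalized count and a limit of 2-fold, and carry no test. Exact (Clopper-Pearson) 95% intervals of read ratios were scaled by the effective library sizes, and Wilson intervals were used for shares of all reads. Both cover counting error only, since reads carried no molecular identifiers. The additive fit used limma 3.58.1 with a trend in R 4.3.3 and was adjusted over 15164 rows. Alternatives were the scaling, pseudocount, level limit, trend and membership. Named members were the 8 with the highest mean, the 4 highest and 4 lowest per comparison, those past 2-fold (up to 12 per comparison), the paralog pairs, P stalk, 5S pair, Rpsa and those nearest the level limit. Some genes that the rule names are not reported here. The members and lists were chosen with earlier results of these data known. Gene positions are from GENCODE and start windows from RefSeq, both on GRCm38. No paired analysis was possible because each group has 1 library.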

Additional observations from a re-analysis of the deposited data

Results flagged for a closer look

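The exercise differences of 69 members had opposite signs without and with tumor, and all 69 were higher with exercise in tumor-free lungs and lower with exercise in tumor lungs. Of all rows, 49.8% had opposite signs and 24.9% had this direction. The number was 59 on library totals, 52 without hemoglobin genes and Rn45s in the totals and 71 with median-of-ratios factors, where 27.4%, 19.6% and 26.5% of all rows had this direction. In tumor-free lungs the counting interval of 20 members held 0. The median member differed by 0.19 with exercise in tumor-free lungs and by -0.65 in tumor lungs. Rpl39l, the only member past 2-fold without tumor, went in opposite directions, at 3.37 without tumor and -2.63 with tumor. The value of 3.37 rests on 95 reads in the normal exercise and 9 in the normal control. Its normal exercise level was 2.15% of that in the cancer control, and the part of RNA from another library in it was not tested. The 2 comparisons share no library, but with 1 library per group the difference between them was not tested.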

How the results depend on the processing

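Of 640 values of 40 members run under other scalings and another pseudocount, 388 stayed within their counting interval and 252 moved beyond it. Scaled to library totals, the medians were 0.10 (exercise without tumor), 1.19 (tumor without exercise), -1.26 (exercise with tumor) and -0.26 (tumor with exercise, where the sign changed), and 64 members passed 2-fold for exercise with tumor, where 51.8% of all rows did on that scale. Without hemoglobin genes and Rn45s in the totals, the medians were 0.076, 0.93 and 0.081 for the first, second and last of these, and the members' shares of reads were 4.49%, 4.82%, 8.11% and 5.08%. Without the paralogs, 0 members passed 2-fold for exercise without tumor, where 5.28% of all rows were higher and 4.7% lower. For tumor with exercise 0 of them passed, where 14.9% of all rows were higher and 13.0% lower. Leaving out Rpl39l, which was chosen after seeing the data, also gave 0 for exercise without tumor. The limma call for tumor, which is Rpl39l alone, became 0 members without hemoglobin genes and Rn45s, 0 with no level limit, 0 at a limit of 100 and 0 without the trend, and the cause was not tested. No paired analysis was possible because each group has 1 library. Low counts limit Rpl3l, with 6 to 37 reads, and Rpl39l in the normal control.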

Other observations

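The paired helicases of translation initiation went opposite ways. Eif4a1 was 1.74 higher in the cancer control than in the normal control (exact 95% interval 1.62 to 1.86), and its close relative Eif4a2 was 2.32 lower, at -2.32 (-2.51 to -2.15). Eif4a2 had 1838, 1779, 284 and 502 reads in the normal control lung, the normal exercise lung, the cancer control lung and the cancer exercise lung.

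Cdkn1a and Ddit4, chosen after their values were seen, were higher with exercise in tumor lungs, where 49.7% of all rows were lower. Cdkn1a, the p53 target that halts the cell cycle, had 2129, 5462, 3422 and 16109 reads, with its highest value in the cancer exercise, where it was 2.33 above the cancer control. Among 10 p53 targets it was the highest in that comparison, whose median was -0.73 with 6 lower and 4 higher, among them Trp53inp1 (1.54) and Mdm2 (0.52). Ddit4, an inhibitor of mTOR, had 507, 1368, 2770 and 5280 reads and was also highest in the cancer exercise, while 12 of 16 mTOR pathway genes were lower there than in the cancer control (median -0.70). Summed neutrophil markers, at 372, 1065, 1172 and 13468 CPM, were highest in the same library, and their part was not tested.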
